A study of Mus musculus with 6 samples.

Results

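Trem2, Gpnmb, Cd9, Spp1, Lgals3, Cd63, Ctss, Ctsb, Lyz2 and Cd68, 10 genes that are typical of lipid-associated macrophages and of macrophage lysosomes, were taken by symbol from the 32212 rows of the liver count table, and all 10 were among the 13867 genes with enough counts to test. Poly(A) RNA had been sequenced from liver tissue of 3 WT and 3 CgA-KO mice, with 1 library per mouse. All were males of 2 yr on a C57BL/6 background and a normal chow diet. CgA-KO mice lack chromogranin A, the prohormone encoded by Chga, in the whole body. The comparison addressed which liver transcripts differ between aged mice with and without this prohormone.

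Macrophages take up dying cells, lipoproteins and microbes and break them down in lysosomes, acidic compartments filled with cathepsins and other hydrolases. In fatty or injured liver, some macrophages turn on a lipid-associated program. Its lead receptor, TREM2, binds lipids and lipoproteins and signals through the adaptor encoded by Tyrobp, and GPNMB, CD9, osteopontin and galectin-3 are often raised with it. Several of these genes are not particular to macrophages: hepatocytes contain much cathepsin B, bile duct cells make osteopontin, and platelets carry CD9.

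The libraries held 10558616 to 31087453 counts, and the shallowest was WT replicate 1. In that library 3 counts corresponded to 0.269 CPM, compared with 0.0951 CPM in CgA-KO replicate 2, the library with the lowest such floor. CPM is the count per 1000000 counts of the library after scaling by edgeR's trimmed mean of M values (TMM), and such a floor covers counting error only. Chga had 0 counts in all 6 libraries, WT included, so this transcript could not check the genotype labels. Among 7 hepatocyte genes tested, edgeR called 0 in either direction (1 at an unadjusted p under 0.05, and 1 in DESeq2, both lower), and their summed level was 57030 to 96180 CPM in WT livers and 48250 to 83180 CPM in CgA-KO. Other marker lists gave 1 higher gene of 4 for dendritic cells, 2 of 7 for stellate cells and fibroblasts, 1 higher and 1 lower of 6 for sinusoidal endothelium, and 0 of 4 for B cells (1 at an unadjusted p under 0.05 and 1 in DESeq2). With single libraries dropped, the dendritic count was 0 to 2 (0 for WT replicate 2 or 3 or CgA-KO replicate 2, 2 for WT replicate 1). The stellate count was 0 to 4 (0 for WT replicate 3 or CgA-KO replicate 1 or 2, 1 for WT replicate 2, 4 for WT replicate 1), and the endothelial calls numbered 2 to 4, highest for WT replicate 1. CgA-KO replicate 2 stood apart in the summed level of neutrophil genes, 374.5 CPM against 33.5 and 36.9 CPM in the other CgA-KO mice. Ngp (92.1 CPM), S100a9 (81.5 CPM), Mpo (66.8 CPM) and S100a8 (51.0 CPM) were the largest parts of that sum. Every gene of the list was highest there among the CgA-KO mice except Cxcr2, at 2.38 CPM against 3.95 CPM in CgA-KO replicate 1.

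Ctss, Cd68, Lgals3 and Lyz2, 4 of the 10 genes, were higher in CgA-KO liver at an adjusted p under 0.05 in edgeR's quasi-likelihood test, and 0 were lower, also at an unadjusted p under 0.05 and in DESeq2. Of all genes tested, 12.4% passed, 8.6% as higher and 3.84% as lower in CgA-KO. In 6 genes, these 4 with Ctsb and Cd9, every CgA-KO library lay above every WT library, as it did for 19.0% of all genes. The log2 fold change (CgA-KO over WT, as everywhere below) was above 0 for 9 genes and its median over the 10 was 1.40, compared with -0.01 over all genes tested. DESeq2 called 6 of the 10 genes higher, those without overlap, and 11.6% of all genes that it gave an adjusted p. Without WT replicate 2, Ctss was the only gene of the 10 that still passed in edgeR. In bulk liver RNA, more cells of a type and more RNA per cell cannot be told apart.

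**Figure D1:**
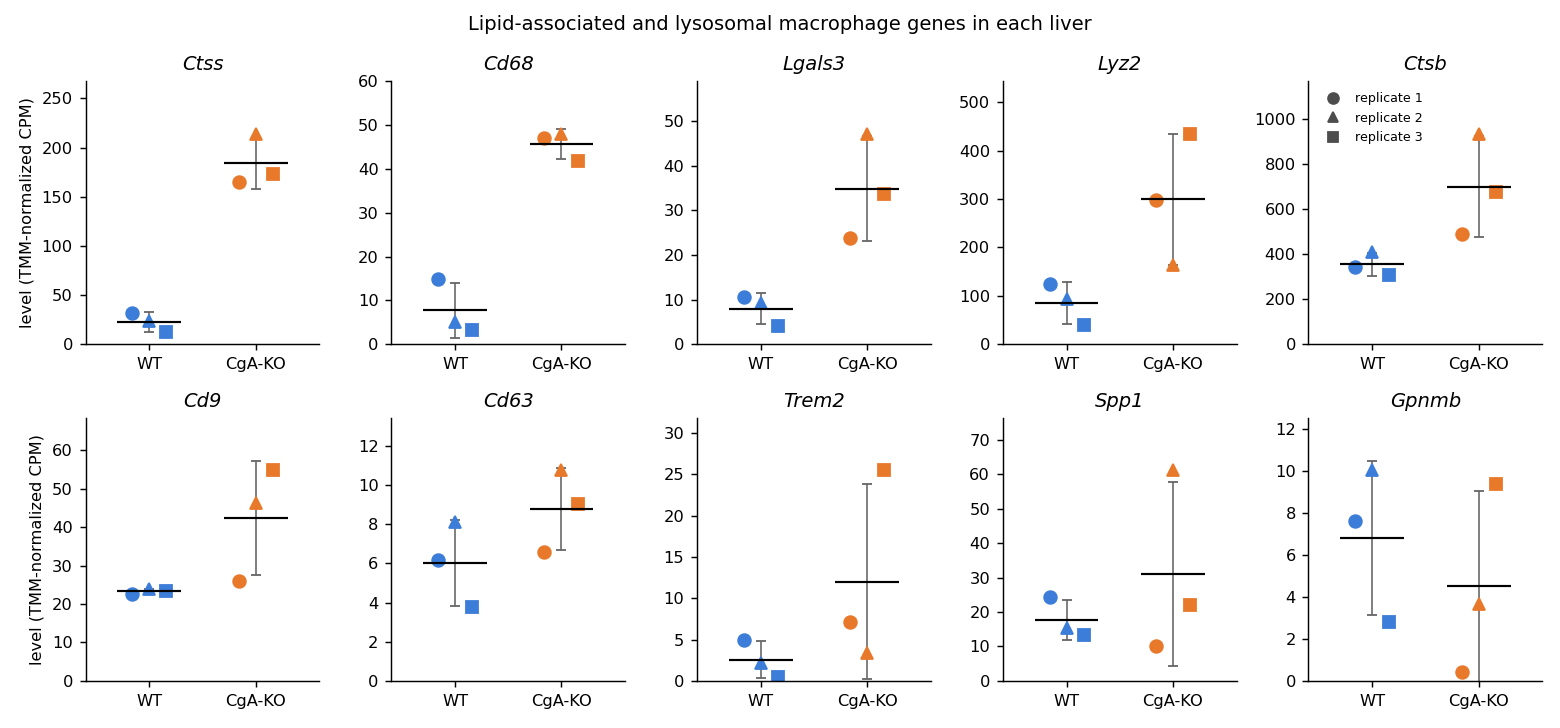
Level of each of the 10 genes in every library (y axis, TMM-scaled CPM on a separate linear scale per panel), with WT in blue, CgA-KO in orange, a symbol per replicate number and lines for mean ± SD of 3 mice. The genotypes did not overlap for Ctss, Cd68, Lgals3, Lyz2, Ctsb and Cd9, whereas CgA-KO replicate 3 alone was high in Trem2 (25.5 CPM).

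Ctss had the largest difference of the 10 genes. It encodes cathepsin S, the lysosomal cysteine protease that trims the invariant chain of MHC class II in antigen-presenting cells. The gene lies on chromosome 3, 95526786 to 95556403 (GRCm38), and a same-strand pseudogene, Hmgb1-ps5, overlaps it. Its level was 32.0, 24.0 and 12.2 CPM in the WT mice and 165.3, 214.1 and 172.8 CPM in the CgA-KO mice. The lowest CgA-KO library was thus far above the highest WT library, and the spread was relatively wider among the WT mice. The mean was 22.7 ± 9.95 CPM in WT livers and 184.0 ± 26.3 CPM in CgA-KO (SD, n = 3), a log2 fold change of 3.02 (SE 0.346, 95% interval 2.24 to 3.81, edgeR adjusted p = 0.00322). The call held whichever single library was left out, with log2 fold changes of 2.71 to 3.39. Ctss is among the genes labelled on the study's own heat map, which were picked on these libraries, so its direction is not independent of that choice.

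Cd68 encodes a heavily glycosylated membrane protein of macrophage lysosomes and late endosomes, and is widely used as a macrophage stain. It lies on chromosome 11, 69664213 to 69666153, on the minus strand. Its level was 14.96, 5.15 and 3.18 CPM in WT livers and 47.1, 48.0 and 41.8 CPM in CgA-KO. The CgA-KO mice were almost alike, the highest being 1.15 times the lowest, whereas the WT mice spanned 4.71 times. On the log2 scale the difference was 2.60 (SE 0.485, 95% interval 1.51 to 3.70, edgeR adjusted p = 0.0128). This call was lost without WT replicate 2, where the log2 fold change was 2.38 and the adjusted p 0.101, and under the filter of at least 1 count in total (adjusted p = 0.0569).

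Promoter sequence is shown for Ctss and Cd68 because these genes had the largest differences and carry letters of the motifs marked below. Each stretch runs from 165 bases before to 15 bases after the RefSeq start site (GRCm38.p6), 5′ to 3′ on the gene's own strand, chr3:95526621-95526800 (plus strand) for Ctss and chr11:69666156-69666335 (minus strand) for Cd68. Capitals mark GAGGAAGT on either strand, the site type of the macrophage factor PU.1, and TGANTCA, the AP-1 site.
Ctss: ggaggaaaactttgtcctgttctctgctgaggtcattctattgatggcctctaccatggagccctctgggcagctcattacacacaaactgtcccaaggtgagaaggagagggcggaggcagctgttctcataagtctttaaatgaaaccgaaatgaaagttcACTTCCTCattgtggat
Cd68: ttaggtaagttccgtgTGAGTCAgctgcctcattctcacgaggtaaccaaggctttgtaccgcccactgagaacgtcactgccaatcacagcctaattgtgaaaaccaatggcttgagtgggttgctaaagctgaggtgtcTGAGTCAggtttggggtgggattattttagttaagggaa
In Ctss the PU.1-type letters stood on the reverse strand, beginning 2 bases before the start and running across it. Cd68 held the AP-1 letters at 149 and 24 bases before its start. Over the table's 32851 promoter windows of 250 bases before to 50 bases after the start, GAGGAAGT occurred in 3.2% and TGANTCA in 7.81%. Of the 10 genes, 9 had a window in that table, and none of them held CACGTG, the core of the site read by TFEB and its relatives, which occurred in 7.15% of all windows. Such matches describe letters only, and neither binding nor use of these sites was measured.

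Lgals3 encodes galectin-3, a lectin that binds galactose-containing sugars, is secreted by activated macrophages and also marks damaged lysosomes. It lies on chromosome 14, 47367751 to 47386160. The WT libraries gave 10.6, 9.27 and 4.11 CPM and the CgA-KO libraries 23.7, 47.2 and 33.6 CPM, without overlap. The means were 7.98 ± 3.42 and 34.8 ± 11.8 CPM and differed by 2.14 on the log2 scale (SE 0.376, 95% interval 1.29 to 2.99, edgeR adjusted p = 0.0108). The call was lost without WT replicate 2 (log2 fold change 2.28, adjusted p = 0.0554).

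Lyz2 encodes lysozyme, which cleaves bacterial cell walls and is made by macrophages, monocytes and neutrophils. It lies on chromosome 10, 117277331 to 117282321, on the minus strand. The WT livers held 123.6, 93.7 and 38.8 CPM and the CgA-KO livers 298.4, 163.7 and 434.8 CPM. The genotypes did not overlap, but the CgA-KO mice differed widely and replicate 2 was the lowest of them. The log2 fold change was 1.81 (SE 0.467, 95% interval 0.75 to 2.87) and the edgeR adjusted p was 0.0375. That call was the least stable of the 4: it was lost in 4 of the 6 fits that left out 1 library. The adjusted p was 0.153 when WT replicate 2 was dropped and 0.109 when WT replicate 3 was, and among the CgA-KO mice 0.102 for replicate 1 and 0.0910 for replicate 3. It was also lost under the filter of at least 1 count in total (adjusted p = 0.0656). Its close paralog Lyz1, a lysozyme gene of Paneth cells in particular, had 1, 4 and 2 counts in WT and 19, 4 and 11 counts in CgA-KO and was not tested. How reads shared by these paralogs were divided is not given in the sources used here, which leaves the Lyz1 counts uncertain.

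The summed neutrophil and monocyte markers were, like Lgals3 and Lyz2, higher in every CgA-KO library than in every WT library. The 9 neutrophil genes summed to 4.02 to 11.4 CPM in WT livers and 33.5 to 374.5 CPM in CgA-KO, with Mpo at 0 in every WT library, and 3 of the 5 tested were higher, a count of 0 to 5 when single libraries were dropped, lowest for WT replicate 3. The 7 monocyte genes summed to 10.6 to 23.7 CPM in WT livers and 28.6 to 194.6 CPM in CgA-KO, and 2 passed as higher, against 1 when any WT library was dropped and 4 when CgA-KO replicate 1 was. In CgA-KO replicate 2, where the neutrophil and monocyte sums peaked, Lyz2 was lowest among the CgA-KO mice and Lgals3 highest. The part of these cells in the Lgals3 and Lyz2 values was not tested.

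Ctsb and Cd9 missed the threshold although their genotypes did not overlap. Cathepsin B, encoded by Ctsb on chromosome 14 at 63122462 to 63145923, is a lysosomal cysteine protease of most cell types, and Fdft1 overlaps its gene on the other strand. Ctsb was at 343.8, 410.7 and 306.8 CPM in WT livers and 487.2, 934.3 and 673.3 CPM in CgA-KO. Its log2 fold change was 0.98 (SE 0.285, 95% interval 0.34 to 1.63, edgeR adjusted p = 0.0553). DESeq2 gave an adjusted p of 0.00594, and edgeR called the gene without CgA-KO replicate 1 (log2 fold change 1.22, adjusted p = 0.0442).

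Cd9 and Cd63 encode tetraspanins, small membrane proteins that organise other proteins at the cell surface and, for CD63, in late endosomes and exosomes. Cd9 (chromosome 6, 125460266 to 125494791, minus strand) was nearly constant in WT, at 22.7, 23.8 and 23.3 CPM, and stood at 25.95, 46.1 and 54.7 CPM in CgA-KO. CgA-KO replicate 1 was thus close to the WT mice and the other CgA-KO mice were well above them. The log2 fold change was 0.86 (SE 0.259, 95% interval 0.27 to 1.45, edgeR adjusted p = 0.0620). Dropping CgA-KO replicate 1 raised it to 1.15, with an adjusted p of 0.0215. Gm28809 and Gm26728 overlap Cd9 on the other strand, and whether the counting used strand is not given in the sources used here. Platelet genes had a summed level of 4.60 to 9.85 CPM in WT livers and 15.6 to 41.6 CPM in CgA-KO. That sum was lowest among the CgA-KO mice in replicate 1, as Cd9 was, but no single gene of the list was. Pf4 was lowest in CgA-KO replicate 2, and Ppbp, Itga2b and Gp9 in CgA-KO replicate 3. In edgeR 0 of 4 passed, with 3 at an unadjusted p under 0.05 and 1 called by DESeq2. Their part in the Cd9 values was not tested.

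Cd63 (chromosome 10, 128900989 to 128912822) was at 6.18, 8.13 and 3.77 CPM in WT livers and 6.59, 10.8 and 9.01 CPM in CgA-KO. The genotypes overlapped, since CgA-KO replicate 1 lay below WT replicate 2. Its log2 fold change was 0.55 (95% interval -0.19 to 1.28, edgeR adjusted p = 0.304), so that a fall of 0.19 and a rise of 1.28 on the log2 scale were both within the error.

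The genes that are most used to name lipid-associated macrophages, Trem2, Gpnmb and Spp1, did not pass. Trem2 (chromosome 17, 48346401 to 48354147) rested on few counts in some libraries, with 55, 52 and 12 counts in WT and 154, 107 and 568 counts in CgA-KO. These gave 4.93, 2.21 and 0.508 CPM in WT livers and 7.15, 3.39 and 25.5 CPM in CgA-KO. CgA-KO replicate 2 was below WT replicate 1, and CgA-KO replicate 3 was far above all other mice. On the log2 scale the genotypes differed by 2.30 (SE 0.863, 95% interval 0.35 to 4.25, edgeR adjusted p = 0.116). It fell to 1.12 without CgA-KO replicate 3, and the gene was called only in the fit without both WT replicate 1 and CgA-KO replicate 2 (log2 fold change 3.64, adjusted p = 0.0281).

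Gpnmb encodes a transmembrane glycoprotein of lysosomes and melanosomes that is strongly expressed in lipid-laden macrophages. It lies on chromosome 6, 49036546 to 49070929. It was the only gene of the 10 with a negative log2 fold change, and this was well within the error. Its level was 7.61, 10.04 and 2.80 CPM in WT livers and 0.418, 3.68 and 9.41 CPM in CgA-KO, the CgA-KO libraries spanning 22.5 times. That span rests on 9 counts in CgA-KO replicate 1. Its log2 fold change was -0.60 (SE 0.826, 95% interval -2.47 to 1.28, edgeR adjusted p = 0.681), and it ranged from -1.67 to -0.02 when single libraries were left out, lowest without CgA-KO replicate 3.

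Spp1 (chromosome 5, 104435118 to 104441050) encodes osteopontin, a secreted phosphoprotein that binds integrins and CD44. Its level was 24.5, 15.4 and 13.3 CPM in WT livers and 10.1, 61.2 and 22.1 CPM in CgA-KO, so the lowest and the highest of the 6 values were both in CgA-KO mice. The log2 fold change of 0.83 (SE 0.555, 95% interval -0.43 to 2.08, edgeR adjusted p = 0.364) turned to -0.091 without CgA-KO replicate 2. Bile duct genes summed to 5.97 to 7.02 CPM in WT livers and 7.08 to 12.4 CPM in CgA-KO, with 0 of 4 past the test in edgeR (1 at an unadjusted p under 0.05) and 0 in DESeq2. Sox9 was the largest part of each CgA-KO sum (6.92, 7.71 and 4.71 CPM) and was higher than in WT without overlap. Krt7 was lower without overlap, and Krt19 and Epcam overlapped. The bile duct sum too was highest in CgA-KO replicate 2, and the part of these genes' cells in the Spp1 values was not tested.

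Promoters of these 3 genes are shown to set them beside Ctss and Cd68, with which they share motif letters though not the call. Build, window and capitals are as above, and the stretches are chr17:48346236-48346415 for Trem2, chr6:49036353-49036532 for Gpnmb and chr5:104434946-104435125 for Spp1, all on the plus strand.
Trem2: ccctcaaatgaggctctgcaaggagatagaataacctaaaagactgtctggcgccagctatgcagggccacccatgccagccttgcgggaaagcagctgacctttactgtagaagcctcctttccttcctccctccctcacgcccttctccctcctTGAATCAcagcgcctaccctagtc
Gpnmb: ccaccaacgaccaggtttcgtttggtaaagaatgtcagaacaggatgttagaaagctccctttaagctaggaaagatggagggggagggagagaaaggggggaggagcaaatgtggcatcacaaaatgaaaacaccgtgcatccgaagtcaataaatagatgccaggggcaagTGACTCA
Spp1: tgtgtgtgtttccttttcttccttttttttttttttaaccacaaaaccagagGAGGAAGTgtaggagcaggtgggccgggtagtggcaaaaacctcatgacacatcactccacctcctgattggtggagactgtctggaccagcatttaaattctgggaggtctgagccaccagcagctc
AP-1 letters lay 9 bases before the start in Trem2 and 9 bases after it in Gpnmb. In Spp1 the PU.1-type letters lay 113 bases before the start shown, on the gene's own strand, and the window of its other RefSeq start held none of the 3 motifs. Cd9, Lgals3, Cd63 and Lyz2 held none of the 3 motifs in their windows. The windows of Lgals3 and Cd63 lay inside the gene spans given above, downstream of the first base of those spans.

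An exact two-sided permutation test on the mean log2 CPM of the single genes gave p = 0.1 for each of the 6 without overlap. This is the smallest p that 3 against 3 mice allow. The same exact test gave p = 0.2 for Trem2 and Cd63, 0.6 for Gpnmb and 0.7 for Spp1.

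**Figure D2:**
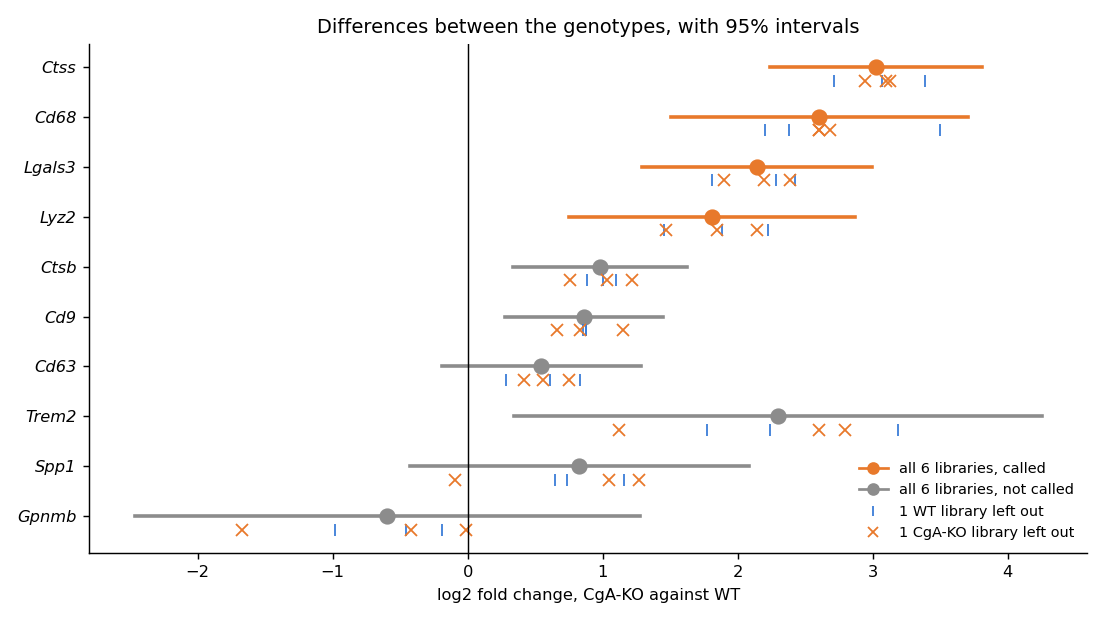
Log2 fold change of each gene, CgA-KO over WT (x axis), with its 95% interval from edgeR, in orange for an adjusted p under 0.05 and grey otherwise, and small marks below for the fits without 1 WT (blue) or 1 CgA-KO library (orange crosses). The intervals of Ctss, Cd68, Lgals3 and Lyz2 lie above 0 in orange, those of Ctsb, Cd9 and Trem2 lie above 0 without a call, and those of Cd63, Spp1 and Gpnmb cross 0.

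Per length of the longest coding transcript, the order of the genes changed between genotypes. In WT, Ctsb had the highest mean, 74.6 CPM per kb, followed by Lyz2 with 64.9 CPM per kb, and these overlapped. A gap without overlap separated them from Cd9 at 18.9 CPM per kb. From Cd9 down to Gpnmb at 1.84 CPM per kb, every neighbour in the WT order overlapped the next. In CgA-KO, Lyz2 led with 227.2 CPM per kb before Ctsb with 147.2 and Ctss with 135.8 CPM per kb, again overlapping. All 3 CgA-KO libraries had more Ctss than Cd68, the next gene, at 37.1 CPM per kb. Trem2 stood at 2.34 CPM per kb in WT and 11.0 CPM per kb in CgA-KO, and Gpnmb was the lowest gene in both genotypes.

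The genes did not follow 1 order of mice. WT replicate 3 was the lowest WT library for 9 of the 10 genes, all but Cd9. Among the CgA-KO mice, replicate 1 was lowest for 7 genes and highest for none. Replicate 2 was highest for Spp1, Lgals3, Cd63, Ctss, Ctsb and Cd68, and replicate 3 for Trem2, Gpnmb, Cd9 and Lyz2. The ratio of the highest to the lowest mouse of a genotype ran from 1.05 for Cd9 to 9.69 for Trem2 in WT and from 1.15 for Cd68 to 22.5 for Gpnmb in CgA-KO. The mean standardised log2 CPM of the 10 genes was -0.22, -0.36 and -1.17 in WT and -0.01, 0.86 and 0.90 in CgA-KO. The genes whose own log2 CPM ran closest to this mean over the 6 libraries were Dnajc9 (r = 0.996), Spats2l (r = 0.994), Crip1 (r = 0.994), Reep5 (r = 0.992) and Myd88 (r = 0.992). None of these 5 passed the edgeR test, and their r describes only 6 libraries that fall into 2 genotypes and share depth and scaling.

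General macrophage markers were higher in CgA-KO. Of 10 markers, 9 passed as higher, all but Mertk, or 6 when WT replicate 2 was dropped. The count was 8 when WT replicate 3 or CgA-KO replicate 1 or 2 was dropped. The summed level of the 10 markers was 114.5 to 291.8 CPM in WT livers and 1466, 1198 and 1048 CPM in CgA-KO replicates 1, 2 and 3. Within CgA-KO the markers thus peaked in replicate 1, which was the lowest CgA-KO library for 7 of the 10 genes. Adgre1, which encodes the macrophage antigen F4/80, was at 2.60 to 6.72 CPM in WT livers and 34.7 to 68.7 CPM in CgA-KO. Of 7 Kupffer cell genes 5 were higher, or 3 when WT replicate 2 was dropped, and their sum was 86.8 to 175.8 CPM in WT livers and 779.3 to 1175 CPM in CgA-KO. Several markers on these lists, C1qa, C1qb, C1qc and Adgre1 among them, are labelled on the study's plots of these libraries. The part of these cells in the 10 genes' differences was not tested.

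The 10 genes were also expressed relative to the markers, as log2 CPM minus the mean log2 CPM of the 10 general macrophage markers, which was 2.89 higher in CgA-KO. On this relative scale Ctss differed by 0.22 and Cd68 by -0.04 between genotypes, with overlapping libraries. Trem2 (-0.71), Lgals3 (-0.72) and Lyz2 (-1.04) had lower relative means in CgA-KO, also with overlap. The remaining 5 genes were lower in every CgA-KO library than in every WT library: Ctsb by -1.95, Cd9 by -2.10, Cd63 by -2.31, Spp1 by -2.41 and Gpnmb by -4.10. The Gpnmb difference includes CgA-KO replicate 1, which held 9 counts of it. Of all genes tested, 92.1% were lower without overlap on this scale, so that the position of these 5 genes was the common one and that of Ctss and Cd68 was near the markers.

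**Figure D3:**
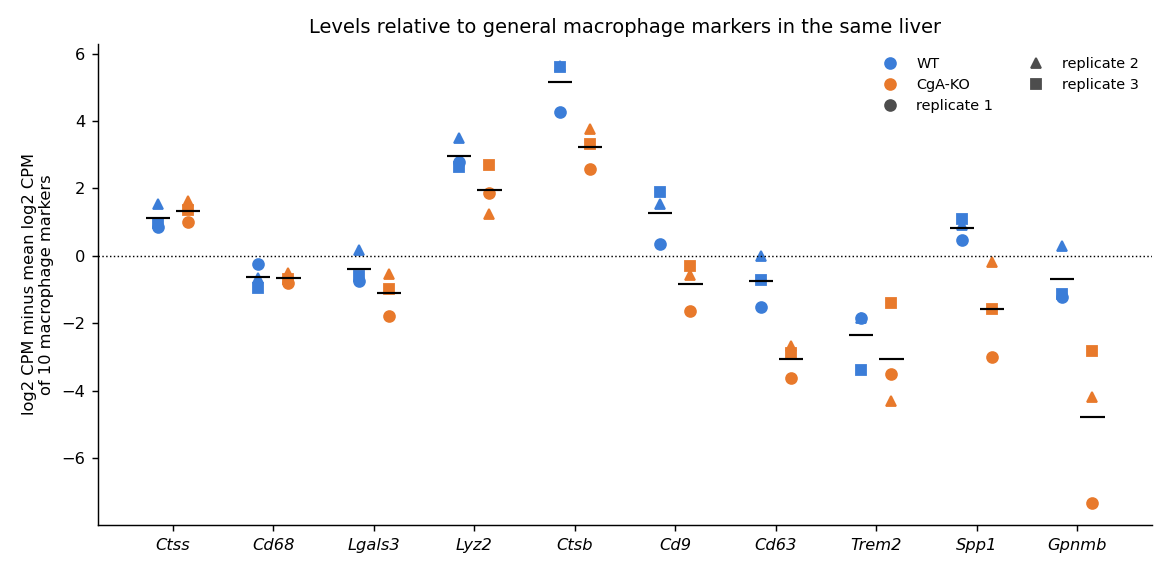
Log2 level of each gene relative to the mean log2 CPM of 10 general macrophage markers in the same library (y axis), with WT in blue, CgA-KO in orange, a symbol per replicate number and lines for means. Ctss and Cd68 overlap between genotypes with differences of 0.22 and -0.04, while Ctsb, Cd9, Cd63, Spp1 and Gpnmb are lower in every CgA-KO mouse.

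Genes that work with the 10, in 10 companion lists of ligands, receptors, family members and lysosomal proteins, gave 33 calls among 128 genes tested, 29 higher and 4 lower, where 12.4% of all genes tested were called, 8.6% as higher and 3.84% as lower. Some lists lay near that share, such as the membrane and proton pump list with 3 calls among 23 genes. The number fell to 21 without WT replicate 2 and 15 without WT replicate 3. In the lists with 0 lower calls, DESeq2 called 0 lower except for 1 gene of the membrane and proton pump list. At an unadjusted p under 0.05, 1 gene of that list and 1 of the hydrolase list were lower.

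**Figure D4:**
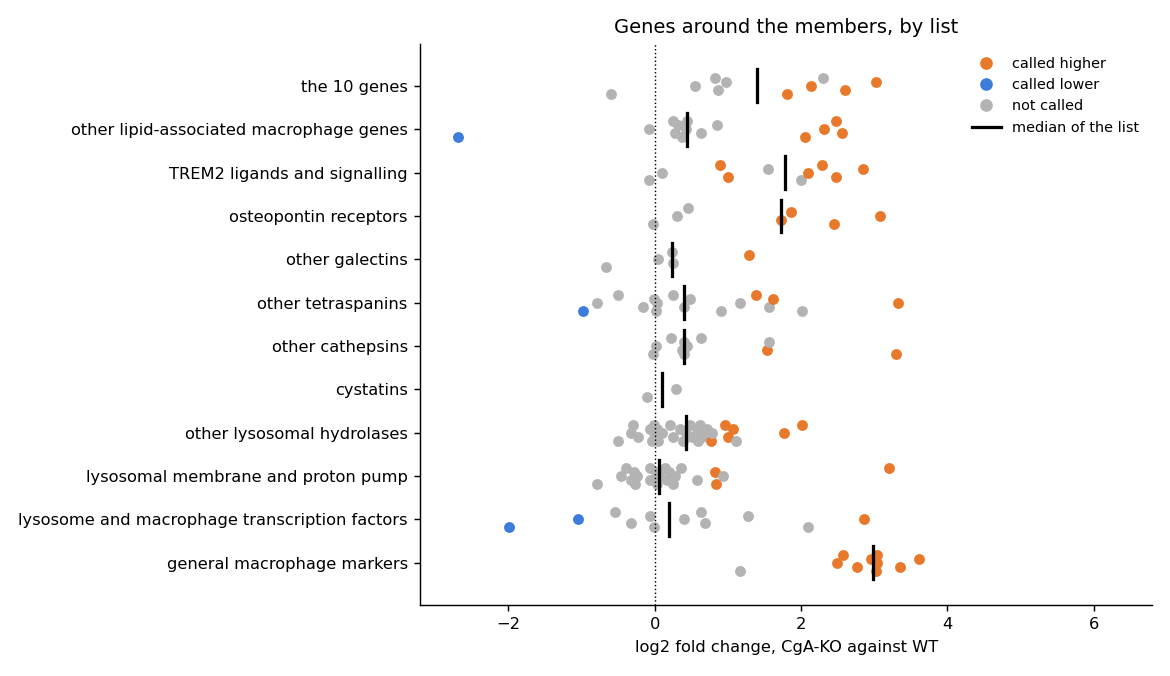
Log2 fold change (x axis) of every tested gene among the 10 genes, in each companion list and among the general macrophage markers, in orange (higher) or blue (lower) for an adjusted p under 0.05, grey otherwise, with a bar at each list's median. Companion list medians range from 0.06 in the lysosomal membrane and proton pump list to 1.78 in the TREM2 ligand and signalling list.

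Of 10 genes of TREM2 ligands and signalling, 6 were higher and 0 lower, with a median log2 fold change of 1.78. Tyrobp, the signalling adaptor of TREM2, was at 5.76 to 13.3 CPM in WT livers and 43.7 to 69.6 CPM in CgA-KO (log2 fold change 2.47, edgeR adjusted p = 0.00486). Hcst, the related adaptor DAP10, rose by 2.29, Vav1, a guanine nucleotide exchange factor of blood cells, by 2.85 and the phosphatase gene Inpp5d by 2.10 on the log2 scale. Adam10 (0.89) and Adam17 (1.00), which encode the proteases that shed TREM2 from the cell, passed as well. The ligands Apoe and Clu had log2 fold changes of -0.08 and 0.09, and the kinase gene Syk (1.55) and the phospholipase gene Plcg2 (2.00) did not pass. This count was 1 when WT replicate 3 was dropped, and 3 when either WT replicate 2 or CgA-KO replicate 1 was.

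Of 7 genes for receptors of osteopontin, 4 passed as higher and 0 as lower, with a median log2 fold change of 1.72. Cd44, a receptor for osteopontin and hyaluronan, was at 4.57 to 9.58 CPM in WT livers and 27.5 to 67.1 CPM in CgA-KO (log2 fold change 3.07, edgeR adjusted p = 0.00484). The integrin genes Itgb3 (2.45), Itga9 (1.86) and Itga4 (1.72) were the others that passed, and Itgav, Itgb1 and Itgb5 did not. Among other galectins and their partner, 1 of 5 passed, Lgals3bp, which encodes a galectin-3-binding glycoprotein (log2 fold change 1.29), and it was lost without WT replicate 3.

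Other lipid-associated macrophage genes went both ways, with 4 of 14 higher, 1 lower and a median log2 fold change of 0.44. Lpl, which encodes lipoprotein lipase, rose from 19.6 ± 2.84 to 115.1 ± 38.3 CPM (log2 fold change 2.56, edgeR adjusted p = 0.00296). Tyrobp, the actin-capping gene Capg (2.32) and the integrin gene Itgax (2.05) were the other higher genes. Fabp5, a fatty acid binding protein gene, fell from 32.6 ± 10.95 to 5.06 ± 3.33 CPM (log2 fold change -2.68, edgeR adjusted p = 0.0117). The calls in this list numbered 2 without WT replicate 2 and 3 without WT replicate 3. Lpl and Fabp5 are labelled on the study's plots, as Cd53 and Laptm5 are. The study also chose Lpl and Fabp5 for qPCR and reports that its chosen genes differed between WT and CgA-KO livers.

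Of 11 other cathepsin genes 2 were higher and 0 lower, with a median log2 fold change of 0.41. Ctsc, the activator of granule proteases, went from 62.8 ± 3.92 to 182.9 ± 33.4 CPM (1.54). Ctsw, a cathepsin of T and NK cells, had a log2 fold change of 3.30, with only 10, 11 and 31 counts in WT. Its level in CgA-KO was 5.06, 18.1 and 3.23 CPM, highest in replicate 2. Only 1 gene of this list passed when WT replicate 1, 2 or 3 was dropped. T and NK cell genes summed to 2.64 to 8.60 CPM in WT livers and 20.1 to 104.4 CPM in CgA-KO, with 5 of 6 higher, and their part in the Ctsw value was not tested. That count was 0 when WT replicate 2 or 3 was dropped, 3 for WT replicate 1 and 2 for CgA-KO replicate 2. Ctsd (0.63) and Ctsl (0.44), abundant cathepsins of many tissues, did not pass.

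Of 33 other lysosomal hydrolase genes, 6 were higher and 0 lower, with a median of 0.43. Lgmn, the asparaginyl protease that processes cathepsins, had a log2 fold change of 2.02, and Sgsh, which encodes a heparan sulfate sulfatase, 1.07. The count was 3 when WT replicate 3 was dropped and 2 when CgA-KO replicate 1 or 2 was. Of 23 membrane and proton pump genes, 3 were higher and 0 lower, with a median of 0.06: Laptm5, a lysosomal membrane gene of blood cells (3.20), Atp6v1b2, a proton pump subunit gene (0.84), and Npc2, the lumenal cholesterol carrier (0.83). The major membrane proteins of lysosomes, Lamp1 and Lamp2, had log2 fold changes of 0.06 and 0.02 with 95% intervals of -0.47 to 0.60 and -0.52 to 0.57. Without WT replicate 3 this list had 1 call.

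Among 17 other tetraspanin genes, 3 were higher and 1 lower, with a median of 0.40. Cd53, a tetraspanin of leukocytes, had the largest log2 fold change (3.32), followed by Tspan15 (1.62), a partner of ADAM10, and Tspan3 (1.39), while Tspan4 fell from 74.0 ± 11.2 to 37.6 ± 6.03 CPM (-0.98). Calls in this list numbered 2 when WT replicate 3 or CgA-KO replicate 3 was dropped. Neither of 2 tested cystatin genes, which encode cathepsin inhibitors, passed in edgeR, and 0 did in DESeq2 or at an unadjusted p under 0.05. This list had 1 call when CgA-KO replicate 1 was dropped. Cst6 and Cst7 were not tested, and Cst7 had 0, 0 and 3 counts in WT and 6, 149 and 12 counts in CgA-KO.

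Of 12 transcription factor genes of lysosomes and macrophages, 1 was higher and 2 lower. Spi1, which encodes PU.1, was at 3.13 to 7.26 CPM in WT livers and 26.4 to 42.8 CPM in CgA-KO (log2 fold change 2.86, edgeR adjusted p = 0.00355). Bhlhe41 (-1.98) and Bhlhe40 (-1.05), transcriptional repressors that also serve the circadian clock, were lower. Tfeb, the master regulator of lysosomal genes, had a log2 fold change of -0.32 and did not pass (edgeR adjusted p = 0.393). With WT replicate 1 dropped, 6 of the 12 passed.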

How the data were processed

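Poly(A) mRNA of liver tissue was sequenced from 3 WT and 3 CgA-KO mice of 2 yr, and groups were taken from the sample titles. The authors quantified reads with Salmon 1.4.0 against the GRCm38 transcriptome and deposited whole-number counts per gene symbol, unscaled. How transcript values became gene counts, and whether strand was used, is not given in the sources used here. The submitters' processing notes also name DESeq2. All 6 columns were mapped to samples.

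Genes were tested with edgeR 4.0.16 in R 4.3.3 (TMM, filterByExpr with a minimum count of 10, robust quasi-likelihood test), with Benjamini-Hochberg adjustment over 13867 genes and calls at an adjusted p under 0.05. SEs were derived from each gene's F statistic. With 1 liver per mouse, p-values measure the spread between mice. Levels are TMM-scaled CPM and log2 CPM used a prior count of 2. DESeq2 1.42.0, limma-voom (limma 3.58.1), other scalings and filters, a replicate block and leaving out libraries were the alternatives. Single genes were also compared by an exact two-sided permutation test. The procedure was checked on simulated counts. Gene positions and lengths come from GENCODE M21, and promoters from RefSeq (GRCm38.p6), matched by symbol.

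The 10 genes and all companion and marker lists were chosen with earlier results of these data known. Genes named are the 10, Lyz1, Tyrobp, Cd44, up to 3 called genes per companion list and direction with the largest log2 fold changes, and the 5 genes most like the mean of the 10. One gene that this rule selects is not reported here. Other genes of the lists were named after their values were seen.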

Additional observations from a re-analysis of the deposited data

How the results depend on the processing

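With the adjusted p threshold at 0.01, 1 of the 10 genes and 11 of the 128 companion genes were called. Leaving out 1 library at a time gave 1 to 5 calls among the 10 genes, the lowest without WT replicate 2, and 15 to 37 calls among the companion genes, with 21 without WT replicate 2 and 15 without WT replicate 3. For the 0.01 threshold and the fits without single libraries, here and above, no share of all tested genes is given. A loss of calls across all genes and one particular to these lists therefore cannot be told apart from these counts. The log2 fold change of Spp1 ranged from -0.091 to 1.27 in these fits and was negative only without CgA-KO replicate 2; the cause was not tested. Among the 10 genes, DESeq2 called 6, limma-voom 4, library size alone 6, upper-quartile factors 5, DESeq2 size factors 4, a total of at least 1 count 3, and at least 10 counts in every library 5, with Gpnmb no longer tested. Scaling by library size alone placed the all-gene median at 0.26 instead of -0.01, and moved the share of calls that were higher from 69.1% to 86.6%, while the median of the 10 genes stayed 1.40 above the all-gene one. The median over the 10 genes was 1.08 to 1.69 in the fits that tested all of them, and 1.84 over the 9 genes tested with at least 10 counts in every library.

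The replicate numbers did not pair the samples, since deviations from the genotype means correlated by 0.20, 0.01 and -0.07 for numbers 1, 2 and 3. With a replicate block, 4 of the 10 genes and 33 companion genes were called and the median of the 10 was 1.38. Lyz2 lost its call (adjusted p = 0.0827) and Ctsb gained one (adjusted p = 0.0495).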
